A study of Homo sapiens with 18 samples.

Results

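Ceruloplasmin (CP, ENSG00000047457) and 9 further genes of cellular iron handling were followed in 3 human pancreatic ductal adenocarcinoma lines after siRNA against KMT2C or KMT2D. Both targets are enhancer-bound enzymes that methylate histone H3. The genes were named as a list and matched by symbol to 10 of the 63677 gene identifiers counted in every library. CP and ISCU (ENSG00000136003) were chosen by their difference in mRNA between KMT2C and KMT2D siRNA in these same libraries, so that difference is given for both as a description without a test. The other 8 are TFRC (ENSG00000072274), SLC11A2 (ENSG00000110911), FTH1 (ENSG00000167996), FTL (ENSG00000087086), SLC40A1 (ENSG00000138449), IREB2 (ENSG00000136381), HMOX1 (ENSG00000100292) and NCOA4 (ENSG00000266412). They were listed for their roles with earlier results of these libraries known, and all but NCOA4, whose matched identifier had no counts, were tested.

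Each of the lines PANC1, COLO357 and SUIT2 gave 6 libraries of ribosome-depleted total RNA, 48 h after transfection. In each line 3 libraries came from KMT2C siRNA1, siRNA2 and siRNA3, 2 from KMT2D siRNA1 and siRNA2, and 1 from a control siRNA, so the 18 libraries comprised 9 with KMT2C siRNA, 6 with KMT2D siRNA and 3 with control siRNA. No group carries both siRNAs, each line has a single control library, and the labels do not say whether libraries came from separate cultures. The p-values therefore speak only of the scatter among these libraries, part of which may be technical. The libraries of a line share its control, so their positions relative to it are not independent. For siRNA ranks that recur in all lines, or libraries all on one side of control, no share of all genes was computed unless given. The same holds for counts of genes at an unadjusted p under 0.05.

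Iron enters most cells as transferrin bound to the transferrin receptor (TFRC) and leaves the endosome through the divalent metal transporter (SLC11A2). Ferritin, a shell of heavy (FTH1) and light (FTL) chains, stores the surplus, and NCOA4 carries ferritin to the lysosome when iron is needed. Ferroportin (SLC40A1) is the only known iron exporter of mammalian cells, and the copper ferroxidase ceruloplasmin, made chiefly by the liver, oxidises the exported iron so that transferrin can bind it. Heme oxygenase (HMOX1) frees iron from heme, and ISCU is the mitochondrial scaffold on which iron-sulfur clusters are built. The RNA-binding proteins IREB2 and ACO1 sense iron and bind hairpins called iron-responsive elements in several of these mRNAs, repressing translation from the 5′ UTR and protecting TFRC mRNA from decay through its 3′ UTR.

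Those hairpins are a sequence feature that several of the genes share. The sense strand of protein-coding transcripts in GENCODE v29 (GRCh38) was searched for C, any 5 bases, the loop CAGTGN and 5 bases able to pair with the 5 before the loop, G with T allowed. Of 19659 protein-coding genes searched, 290 (1.48%) held a match anywhere and 36 (0.183%) held one in a 5′ UTR. Of the 10 iron genes, 4 held one anywhere and 3 held one in a 5′ UTR. These 10 were listed as iron handling genes, for which such hairpins are known, so their counts are a description and not a test. FTH1, FTL and SLC40A1 held a single match each, in the 5′ UTR. TFRC held 4, all in the 3′ UTR. They are shown in 27 bases each, 5′ to 3′ as DNA, with the 6-base loop in capitals. They mark which of the mRNAs described below held a match of this one shape.
FTL, chr19:48965336-48965362, plus strand: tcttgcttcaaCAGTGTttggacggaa
FTH1, chr11:61967575-61967601, minus strand: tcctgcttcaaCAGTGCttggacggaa
SLC40A1, chr2:189580662-189580688, minus strand: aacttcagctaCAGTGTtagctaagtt
TFRC, chr3:196050980-196051006, minus strand: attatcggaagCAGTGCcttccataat
TFRC, chr3:196050576-196050602, minus strand: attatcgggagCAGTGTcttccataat
TFRC, chr3:196050511-196050537, minus strand: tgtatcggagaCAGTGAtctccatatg
TFRC, chr3:196050464-196050490, minus strand: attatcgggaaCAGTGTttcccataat
The remaining 6 genes, SLC11A2 among them, held no stretch of these letters. That says nothing of hairpins of other shapes, in these or in the 4 genes with a match.

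Depth was 14205640 to 32115894 gene counts per library. With KMT2C siRNA, KMT2C mRNA averaged 68.6% ± 21.1 (SD, n = 9) of its level in the matching control library. With KMT2D siRNA, KMT2D mRNA averaged 59% ± 20.8 (SD, n = 6), at 79.9% and 84.7% in PANC1, 43.5% and 45.5% in COLO357 and 34.8% and 65.8% in SUIT2. With KMT2C siRNA, KMT2D mRNA averaged 167.5% ± 82.7 (SD, n = 9) and was above control in 8 of 9 libraries. With KMT2D siRNA, KMT2C mRNA averaged 142% ± 68.7 (SD, n = 6) and was above control in 4 of 6 libraries. It ranged from 92.7% to 273.7%, the highest in PANC1 with KMT2D siRNA2. The library labelled PANC1 KMT2C siRNA2 was at 116% of control for KMT2C and so did not show less of its target. The share of read pairs assigned to no feature was 8.9% to 30.36% with KMT2C siRNA, 8.65% to 13.25% with KMT2D siRNA and 7.49% to 16.46% with control siRNA. It was highest in COLO357 with KMT2C siRNA3 (30.36%) and in SUIT2 with KMT2C siRNA2 (24.99%) and siRNA3 (22.2%). Results called by target or by siRNA, and several others, are also given without these 3 libraries and the PANC1 one, 4 in all. Without them KMT2C siRNA2 is left with its COLO357 library and siRNA3 with its PANC1 library, each assumed to vary like the others. No line then holds both siRNAs, so differences resting on these single libraries are given as values without a test. The part of the no-feature share in them was not tested. All 8 epithelial and ductal markers were detected in every library (summed 870.1 to 6884 CPM, the library-size-scaled counts used throughout). The 8 hepatocyte markers, listed because liver is the main source of ceruloplasmin, summed to 0.0843 to 2.2 CPM with KMT2C siRNA, 0.0454 to 1.32 CPM with KMT2D siRNA and 0.198 to 1.64 CPM with control siRNA. ALB was at 0 in 16 of the 18 libraries, TTR in 15, APOA1 and APOB in 14, FGB in 12, TF and HAMP in 10 and SERPINA1 in 1, with up to 2.07 CPM for SERPINA1 and 0.989 CPM for FGB.

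CP mRNA was lower with KMT2C siRNA than with KMT2D siRNA in PANC1 and COLO357. In PANC1 it was at 0.493, 0.443 and 0.632 CPM with KMT2C siRNA1, siRNA2 and siRNA3, against 1.23 and 2.3 CPM with KMT2D siRNA1 and siRNA2 and 0.955 CPM with control siRNA. In COLO357 it was at 2.41, 2.67 and 1.08 CPM with the KMT2C siRNAs, against 8.68 and 6.52 CPM with the KMT2D siRNAs and 7.02 CPM with control. In both lines every KMT2C library lay below the control and below both KMT2D libraries, as did 12.6% and 15.3% of all 21028 tested genes with respect to KMT2D in PANC1 and COLO357. In SUIT2 only 4 to 10 counts fell on CP in any library. There it stood at 0.452, 0.333 and 0.251 CPM with the KMT2C siRNAs, against 0.377 and 0.308 CPM with the KMT2D siRNAs and 0.273 CPM with control, and the groups overlapped.

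Over the 3 lines, CP differed by -1.48 (log2, SE 0.291) between KMT2C and KMT2D siRNA, by -1.09 (SE 0.354) between KMT2C and control siRNA, and by 0.39 (SE 0.362) between KMT2D and control siRNA. Within lines the KMT2C minus KMT2D value was -1.73 (SE 0.429) in PANC1, -1.87 (SE 0.372) in COLO357 and 0.00 (SE 0.577) in SUIT2. The SUIT2 value rests on 4 to 10 counts per library. Without the 4 libraries that stand apart, the KMT2C minus KMT2D value over the lines was -1.37 (SE 0.308). It was -1.08 without COLO357 and -1.83 without SUIT2. Leaving out the COLO357 control library gave values against control of -0.61 with KMT2C siRNA and 0.85 with KMT2D siRNA. Without any COLO357 library the KMT2C value was -0.41. A library holds RNA from the whole dish, so fewer cells with the transcript and less of it per cell cannot be told apart. One contrast is independent of the choice of CP: all KMT2C and KMT2D libraries, weighted 0.6 and 0.4, against control. It gave -0.50 (SE 0.325, adjusted p = 0.731). KMT2D siRNA2 and siRNA1 differed by 0.10 (SE 0.393, adjusted p = 0.917), and no pair of KMT2C siRNAs differed for CP by more than 0.54 in size (adjusted p from 0.724 to 0.976).

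ISCU mRNA was higher with KMT2D siRNA than with KMT2C or control siRNA. In PANC1 it was at 69.8, 97.8 and 76.4 CPM with KMT2C siRNA1, siRNA2 and siRNA3, against 94.0 and 119 CPM with KMT2D siRNA1 and siRNA2 and 81.0 CPM with control. In COLO357 it was at 45.5, 56.8 and 45.2 CPM with the KMT2C siRNAs, against 83.0 and 77.4 CPM with the KMT2D siRNAs and 45.6 CPM with control. In SUIT2 it was at 35.5, 43.6 and 36.0 CPM with the KMT2C siRNAs, against 59.1 and 47.2 CPM with the KMT2D siRNAs and 33.5 CPM with control. All 6 KMT2D libraries were above the control of their line, a form whose share over all genes was not computed. The KMT2C and KMT2D libraries did not overlap in COLO357 and SUIT2, as held in that direction for 15.3% and 13.6% of all genes. They overlapped in PANC1.

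Relative to control, ISCU averaged 108% ± 14.7 (SD, n = 9) with KMT2C siRNA and 155% ± 25.3 (n = 6) with KMT2D siRNA. The fitted differences were -0.52 (log2, SE 0.115) for KMT2C against KMT2D siRNA, 0.10 (SE 0.148) for KMT2C against control and 0.62 (SE 0.16) for KMT2D against control. Leaving out the 4 libraries that stand apart gave -0.61 (SE 0.127) for KMT2C against KMT2D siRNA. Without KMT2C siRNA2 the KMT2C value against control was -0.0224. In the independent contrast of all KMT2C and KMT2D libraries against control, ISCU was at 0.31 (SE 0.143, adjusted p = 0.565). None of the 9 genes with counts was called there by edgeR, DESeq2 or limma, 1 (ISCU) had an unadjusted p under 0.05, and edgeR called 0.418% of all genes. The 3 lines gave ISCU KMT2C minus KMT2D values from -0.71 to -0.39.

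**Figure D1:**
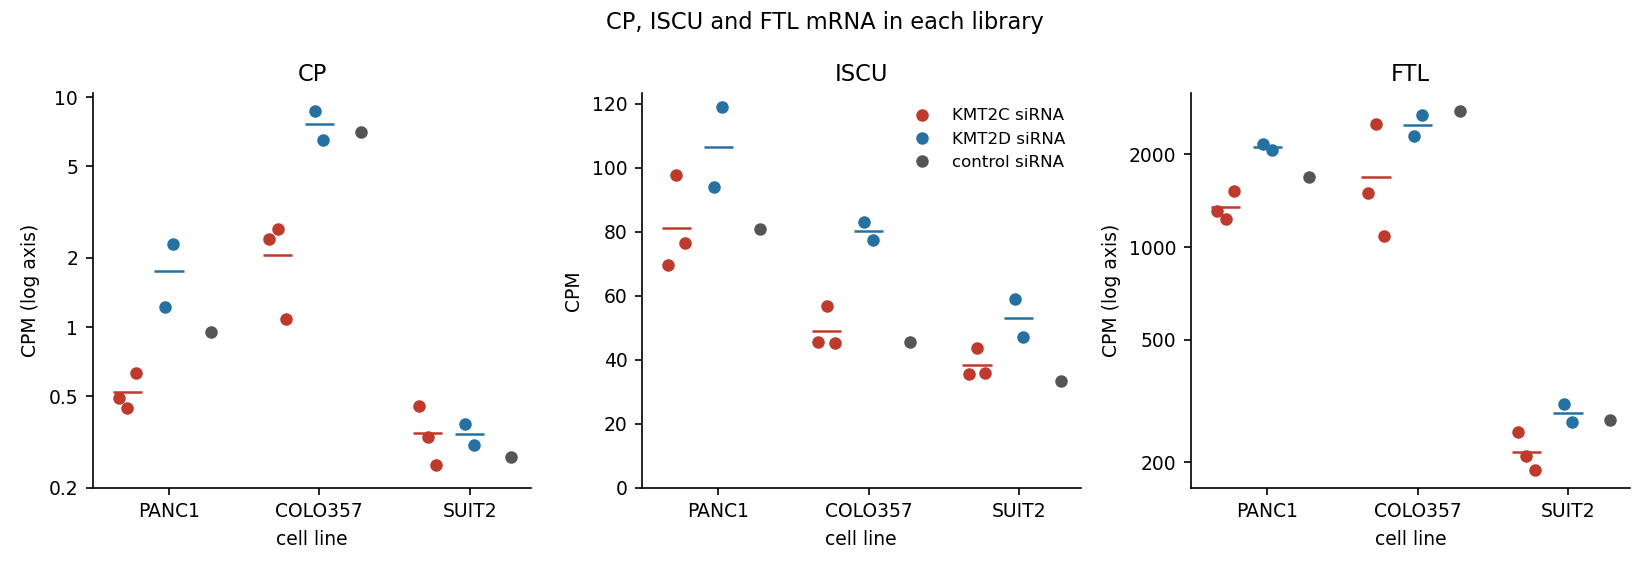
Levels of CP, ISCU and FTL in every library, in CPM (log axes for CP and FTL, a linear axis from 0 for ISCU), by cell line, with KMT2C siRNA in red, KMT2D siRNA in blue and control siRNA in grey; each point is 1 library and each bar the mean of its group. The 3 KMT2C points of CP lie under the 2 KMT2D points in PANC1 and COLO357 and among them in SUIT2, where CP has 4 to 10 counts.

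FTL, the light chain of ferritin, was the only one of the 7 tested members called between KMT2C and KMT2D siRNA, and it was lower with KMT2C siRNA. In PANC1, FTL was at 1310, 1233 and 1518 CPM with KMT2C siRNA1, siRNA2 and siRNA3, against 2157 and 2070.0 CPM with KMT2D siRNA1 and siRNA2 and 1687 CPM with control. In COLO357 it was at 1495, 2507 and 1085 CPM with the KMT2C siRNAs, against 2301 and 2679 CPM with the KMT2D siRNAs and 2760 CPM with control. In SUIT2 it was at 251, 210 and 189 CPM with the KMT2C siRNAs, against 309 and 269.8 CPM with the KMT2D siRNAs and 275 CPM with control. All 9 KMT2C libraries were below the control of their line (73.5% ± 17.6, SD), while the 6 KMT2D libraries averaged 107% ± 17 and lay on both sides of it. KMT2C and KMT2D libraries did not overlap in PANC1 and SUIT2, as held in that direction for 12.6% and 13.6% of all genes, and overlapped in COLO357.

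The log2 difference in FTL between KMT2C and KMT2D siRNA was -0.54 (SE 0.137; adjusted p = 0.0272, edgeR's quasi-likelihood test over 21028 genes). It was the 1 member called of 7 tested in this comparison, in which edgeR called 5.17% of all genes. DESeq2 also called 1 of the 7, with 9.22% of all genes called. Against control, FTL was at -0.46 (SE 0.171, adjusted p = 0.398) with KMT2C siRNA and 0.08 (SE 0.187, adjusted p = 0.919) with KMT2D siRNA. The call did not hold without the library PANC1 KMT2D siRNA1 (adjusted p = 0.0543), without COLO357 KMT2D siRNA2 (adjusted p = 0.0564), or with siRNA as a replicate block in limma (-0.58, adjusted p = 0.123). The lowest FTL level relative to control, 39.3%, was in COLO357 KMT2C siRNA3, the library with the highest no-feature share (30.36%). Without the 4 libraries that stand apart the difference was -0.41 (SE 0.133, adjusted p = 0.135), and 1.17% of all genes were called. With the siRNA block 0.951% of all genes were called. Both ferritin genes have processed pseudogenes of near-identical sequence, and 17.55% to 22.34% of read pairs were listed as not uniquely aligned, so their counts are uncertain.

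FTH1, the heavy chain with the ferroxidase site, differed between siRNAs of 1 target. With KMT2D siRNA2 it was at 263, 296 and 256 CPM in PANC1, COLO357 and SUIT2, against 98.4, 141 and 129.6 CPM with control siRNA, and with KMT2D siRNA1 it was at 129.8, 84.5 and 111 CPM. The siRNA2 level was above both other levels in all 3 lines. KMT2D siRNA2 differed from siRNA1 by 1.30 (log2, SE 0.244, adjusted p = 0.00156) and from control by 1.16 (SE 0.243, adjusted p = 0.00452). With KMT2C siRNA1, siRNA2 and siRNA3, FTH1 was at 154, 136 and 152 CPM in PANC1, at 207, 386 and 156 CPM in COLO357 and at 143, 272 and 158 CPM in SUIT2. All 9 values exceeded their line's control, and no share of all genes was computed for this. Of the 3 siRNAs, siRNA2 was the highest in COLO357 and SUIT2 but the lowest in PANC1. KMT2C siRNA2 differed from control by 1.07 (SE 0.243, adjusted p = 0.0111), a call lost without the PANC1 control (adjusted p = 0.0857), COLO357 KMT2C siRNA2 (adjusted p = 0.0655) or SUIT2 KMT2C siRNA2 (adjusted p = 0.0827). It did not differ past the threshold from KMT2C siRNA1 (0.62, adjusted p = 0.166) or siRNA3 (0.72, adjusted p = 0.139). Both of these differences were called without the library PANC1 KMT2C siRNA2, at 0.95 (adjusted p = 0.00937) and 1.04 (adjusted p = 0.00648), and with no filter on low counts (adjusted p = 0.0117 and 0.00261). Without the 4 libraries that stand apart, FTH1 was at 1.32 (adjusted p = 0.000224) for KMT2D siRNA2 against siRNA1. For KMT2D siRNA2 against control it was at 1.15 (adjusted p = 0.000866). For KMT2C siRNA2 against control it was at 1.57, which rests on COLO357 KMT2C siRNA2 alone, at 274% of control, and cannot show whether the call holds.

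By target, FTH1 was at 0.66 (SE 0.366, adjusted p = 0.611) with KMT2C siRNA and 0.66 (SE 0.384, adjusted p = 0.517) with KMT2D siRNA against control, and KMT2C and KMT2D siRNA differed by 0.00 (SE 0.281, adjusted p = 0.998).

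Over the 4 pairs of siRNAs with the same target, 5 of the 36 differences of the 9 genes were called, those of FTH1, TFRC and SLC11A2. An unadjusted p under 0.05 was found for 13, with no share of all genes computed. The share of all genes called in these pairs was 11.3% for KMT2D siRNA2 against siRNA1, 5.03% for KMT2C siRNA2 against siRNA1, 2.73% for KMT2C siRNA2 against siRNA3 and 0.209% for KMT2C siRNA3 against siRNA1. Each siRNA was read in 3 libraries, 1 per line.

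TFRC, the receptor for iron-loaded transferrin, was lower with KMT2C siRNA1 and siRNA3 than with KMT2C siRNA2. In PANC1 it was at 740, 1467 and 994 CPM with KMT2C siRNA1, siRNA2 and siRNA3, against 1084 and 939 CPM with the KMT2D siRNAs and 1379 CPM with control. In COLO357 it was at 1549, 2125 and 1236 CPM with the KMT2C siRNAs, against 1674 and 2214 CPM with the KMT2D siRNAs and 1808 CPM with control. In SUIT2 it was at 531, 1005 and 569 CPM with the KMT2C siRNAs, against 670 and 604 CPM with the KMT2D siRNAs and 825 CPM with control. KMT2C siRNA2 was above control in all 3 lines and siRNA1 and siRNA3 below it in all 3. KMT2C siRNA2 differed from siRNA1 by 0.79 (log2, SE 0.165, adjusted p = 0.00519) and from siRNA3 by 0.72 (SE 0.165, adjusted p = 0.0152). Of these calls, the one against siRNA3 was lost without PANC1 KMT2C siRNA2, COLO357 KMT2C siRNA3, SUIT2 KMT2C siRNA2 or SUIT2 KMT2C siRNA3 (adjusted p from 0.0549 to 0.118), and the one against siRNA1 without PANC1 KMT2C siRNA1 (0.67, adjusted p = 0.0548). Without the 4 libraries that stand apart siRNA2 was at 0.56 against siRNA1 and at 0.29 against siRNA3. These values rest on 1 siRNA2 library, and siRNA3 is left only in another line, so they cannot show whether the calls hold.

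None of the 5 siRNAs gave a TFRC level that differed from control past the threshold. The values were -0.58 (SE 0.165, adjusted p = 0.0849) with KMT2C siRNA1, 0.20 (SE 0.164, adjusted p = 0.548) with siRNA2 and -0.52 (SE 0.164, adjusted p = 0.201) with siRNA3. With KMT2D siRNA1 and siRNA2 they were -0.26 and -0.22. By target, TFRC was at -0.25 with KMT2C siRNA (SE 0.203, adjusted p = 0.757) and at -0.24 with KMT2D siRNA (SE 0.217, adjusted p = 0.71) against control. The KMT2C value without the 4 libraries that stand apart was -0.43 (SE 0.163, adjusted p = 0.594).

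SLC11A2, which moves ferrous iron out of the endosome, was called lower than control with a single siRNA. With KMT2C siRNA2 it was at 43.7, 28.3 and 44.5 CPM in PANC1, COLO357 and SUIT2, against 104, 77.6 and 84.1 CPM with control siRNA. With KMT2C siRNA1 it was at 107, 63.2 and 91.0 CPM, and with KMT2C siRNA3 at 92.2, 42.0 and 71.4 CPM, in the same order of lines. The siRNA2 value was the lowest of the 6 libraries in every line. The log2 difference from control was -1.21 (SE 0.17, adjusted p = 6.44e-05). KMT2C siRNA3 was also below control in all 3 lines, at -0.42 (SE 0.167, adjusted p = 0.344), and was not called. KMT2C siRNA2 differed from KMT2C siRNA1 by -1.16 (SE 0.17, adjusted p = 0.000129) and from KMT2C siRNA3 by -0.79 (SE 0.169, adjusted p = 0.00847). The call against siRNA3 was lost without PANC1 KMT2C siRNA2, PANC1 KMT2C siRNA3 or SUIT2 KMT2C siRNA3 (adjusted p from 0.0512 to 0.069). Without the 4 libraries that stand apart, siRNA2 was at -1.41 against control, -1.35 against siRNA1 and -1.24 against siRNA3. These values rest on 1 siRNA2 library, and siRNA3 is left only in another line, so they cannot show whether the calls hold. With KMT2D siRNA1 and siRNA2, SLC11A2 stood between 74.3% and 101% of control. By target it was at -0.48 with KMT2C siRNA (SE 0.242, adjusted p = 0.559) and -0.23 with KMT2D siRNA (SE 0.26, adjusted p = 0.776). The KMT2C value was -0.28 (SE 0.229, adjusted p = 0.888) without the 4 libraries. Among the KMT2C siRNAs, siRNA2 had the highest TFRC and the lowest SLC11A2 in all 3 lines. Its own target was at 116%, 62.6% and 65.7% of control in PANC1, COLO357 and SUIT2.

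HMOX1, the inducible enzyme that opens the heme ring, ranged from 17.5% to 1175% of control. In PANC1 it was at 85.6, 282 and 69.6 CPM with KMT2C siRNA1, siRNA2 and siRNA3, against 175 and 257 CPM with the KMT2D siRNAs and 77.4 CPM with control. In COLO357 it was at 17.3, 105 and 15.9 CPM with the KMT2C siRNAs, against 8.34 and 40.3 CPM with the KMT2D siRNAs and 8.95 CPM with control. In SUIT2 it was at 2.71, 5.79 and 1.63 CPM with the KMT2C siRNAs, against 2.6 and 11.5 CPM with the KMT2D siRNAs and 9.32 CPM with control. The siRNA2 of each target gave the highest level of its target in every line, from 62.2% to 1175% of control with KMT2C siRNA2 and from 123% to 450.1% with KMT2D siRNA2. KMT2C siRNA2 differed from siRNA1 by 2.03 (log2, SE 0.693, adjusted p = 0.139) and from siRNA3 by 2.32 (SE 0.7, adjusted p = 0.13), and KMT2D siRNA2 from siRNA1 by 1.39 (SE 0.673, adjusted p = 0.239). None of these was called, nor was HMOX1 by target: 0.44 (SE 0.882, adjusted p = 0.93) with KMT2C siRNA and 0.58 (SE 0.898, adjusted p = 0.853) with KMT2D siRNA against control. All 3 pair differences were called when genes with low counts were not filtered out, with an SE of 0.195 to 0.203. The share of all genes called in these pairs in that setting was not computed. Leaving out the 4 libraries that stand apart gave KMT2C siRNA2 differences of 3.17 from siRNA1 and 3.74 from siRNA3. Both rest on 1 siRNA2 library, with siRNA3 left only in another line.

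**Figure D2:**
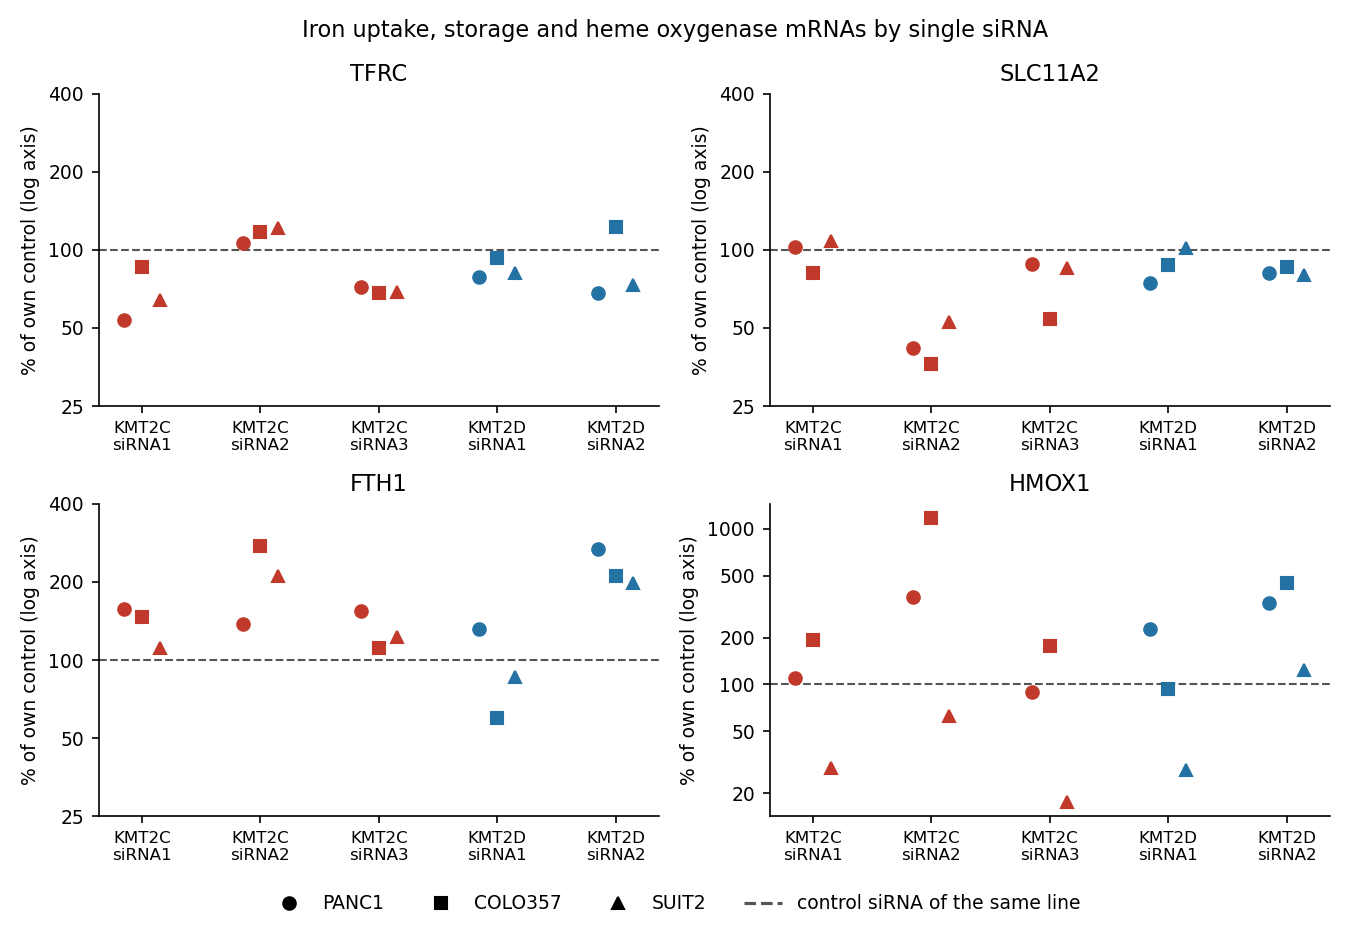
TFRC, SLC11A2, FTH1 and HMOX1 with each of the 5 siRNAs as a percentage of the control library of the same line (log axis; dashed line at 100%), 1 point per library, with PANC1 as circles, COLO357 as squares and SUIT2 as triangles, KMT2C siRNAs in red and KMT2D siRNAs in blue. SLC11A2 is lowest with KMT2C siRNA2 (36.5% to 52.9%), FTH1 is at 198% to 268% with KMT2D siRNA2, and HMOX1 runs from 17.5% to 1175%.

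SLC40A1, the iron exporter that works with ceruloplasmin, was near the limit of detection. In PANC1 it had 3, 1 and 0 counts with KMT2C siRNA1, siRNA2 and siRNA3, against 1 and 2 counts with the KMT2D siRNAs and 0 counts with control, so no fold is given there. In COLO357 it had 19, 33 and 7 counts (1.06, 1.38 and 0.42 CPM) with the KMT2C siRNAs, against 51 and 32 counts (2.19 and 1.4 CPM) with the KMT2D siRNAs and 57 counts (2.69 CPM) with control. In SUIT2 it had 9, 20 and 12 counts with the KMT2C siRNAs, against 31 and 13 counts with the KMT2D siRNAs and 30 counts with control. In COLO357 all 5 knockdown libraries were below control and the KMT2C libraries were below the KMT2D libraries (highest KMT2C 1.38 CPM, lowest KMT2D 1.4 CPM), as held for 15.3% of all genes in that line. Over the lines the value was -0.87 (SE 0.437, adjusted p = 0.563) with KMT2C siRNA and -0.43 (SE 0.456, adjusted p = 0.764) with KMT2D siRNA against control, and neither passed the threshold.

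IREB2, which binds the hairpins printed above when iron is short, lay near control with both targets. It averaged 108% ± 18 of control (SD, n = 9) with KMT2C siRNA and 96.8% ± 15 (n = 6) with KMT2D siRNA. In PANC1 it was at 148, 104 and 134 CPM with KMT2C siRNA1, siRNA2 and siRNA3, against 110 and 139 CPM with the KMT2D siRNAs and 127 CPM with control. In COLO357 it was at 221, 224 and 250.2 CPM with the KMT2C siRNAs, against 208 and 200.4 CPM with the KMT2D siRNAs and 246 CPM with control. In SUIT2 it was at 175, 171 and 183 CPM with the KMT2C siRNAs, against 164 and 139.6 CPM with the KMT2D siRNAs and 139 CPM with control. The KMT2C libraries were above the KMT2D libraries without overlap in COLO357 and SUIT2, as held in that direction for 12% and 12.1% of all genes. The difference between KMT2C and KMT2D siRNA was 0.15 (log2, SE 0.106, adjusted p = 0.421), and no pair of siRNAs with the same target differed in IREB2 past the threshold. The identifier matched to NCOA4, the ferritin cargo receptor, had 0 counts in all 18 libraries and was not tested. That 0 is of this identifier, and reads of the gene under any other identifier were not analysed here.

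Against control, then, the tests by target called none of the 7 members tested with KMT2C siRNA and none with KMT2D siRNA, by edgeR, DESeq2 or limma. The number with an unadjusted edgeR p under 0.05 was 1 with KMT2C siRNA (FTL) and 0 with KMT2D siRNA, and edgeR called 0.281% and 1.2% of all genes in these comparisons. Both comparisons share the 3 control libraries. Against control, single siRNAs were called for FTH1 and SLC11A2 only, in the 3 cases given above, in comparisons where 5.81% of all genes were called with KMT2C siRNA2 and 8.92% with KMT2D siRNA2. The share was 1.2% with KMT2C siRNA1, 0.623% with KMT2C siRNA3 and 4.02% with KMT2D siRNA1, where no member was called.

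Within single lines edgeR called none of the 7 tested members, and DESeq2 and limma were not run there. For KMT2C against KMT2D siRNA only FTL had an unadjusted p under 0.05, in PANC1 and COLO357, and 0%, 0.00476% and 0.133% of all genes were called in PANC1, COLO357 and SUIT2. For KMT2C against control siRNA, FTL and SLC40A1 did in COLO357, with 0%, 0% and 0.00476% of all genes called in the same order of lines. For KMT2D against control siRNA no member did, with 0%, 0% and 0.038% of all genes called. The test of a difference between lines in KMT2C minus KMT2D called none of the 7, none had an unadjusted p under 0.05 in it, and 0% of all genes were called. None of the 9 genes with counts had its KMT2C libraries below its KMT2D libraries without overlap in all 3 lines, as held for 1.7% of all genes, or above them in all 3, as held for 1.29%.

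**Figure D3:**
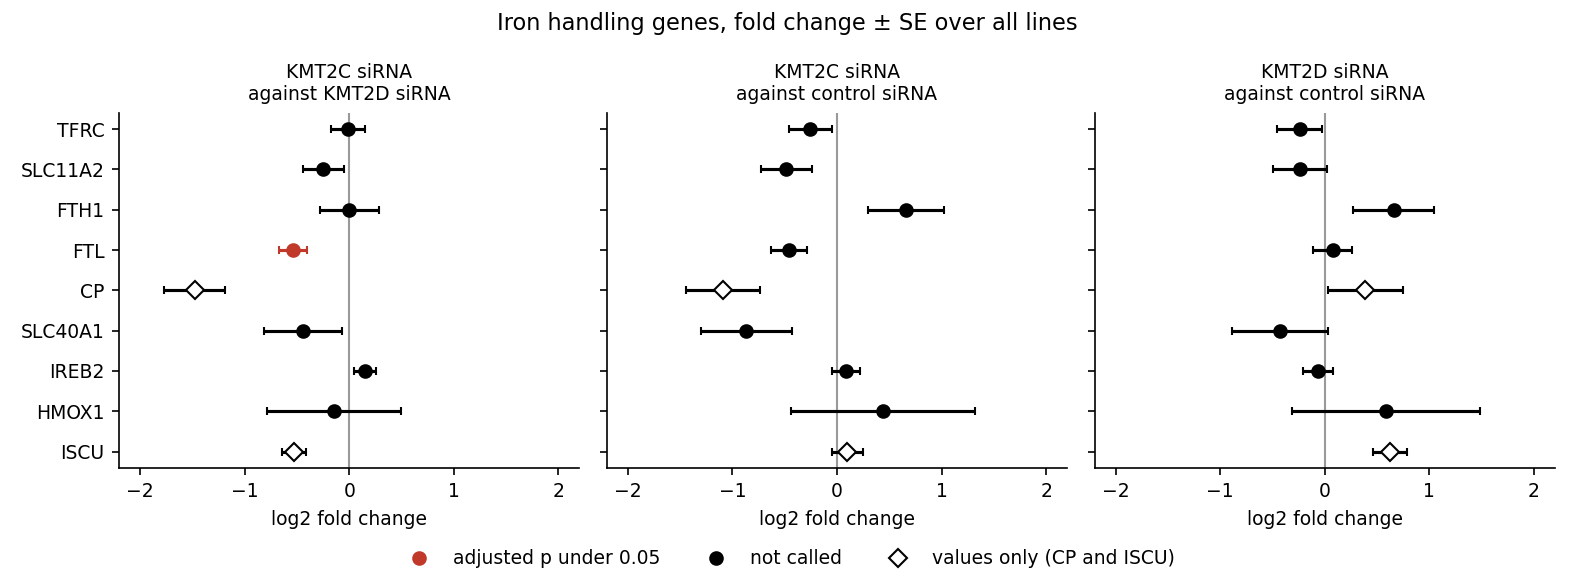
Log2 fold change ± SE of the 9 iron genes with counts over all 3 lines, for KMT2C siRNA against KMT2D siRNA and for each target against control siRNA; red marks an adjusted p under 0.05 and open diamonds mark CP and ISCU, given as values only. FTL at -0.54 is the red point, and CP at -1.48 lies farthest from 0.

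The cell lines differed in most of the 9 genes. Of 27 pairwise line differences of the 9 genes, 21 were called, in a background of 66.8%, 59.3% and 59.7% of all genes for PANC1 against COLO357, PANC1 against SUIT2 and COLO357 against SUIT2. CP ranged from 0.443 to 2.3 CPM in PANC1 (median 0.793), from 1.08 to 8.68 CPM in COLO357 (median 4.59) and from 0.251 to 0.452 CPM in SUIT2 (median 0.321), and all 3 pairs of lines were called (COLO357 against SUIT2 3.72, SE 0.355, adjusted p = 6.06e-09). FTL ranged from 1233 to 2157 CPM in PANC1 and from 1085 to 2760 CPM in COLO357, but only from 189 to 309 CPM in SUIT2. It was 2.72 higher in PANC1 than in SUIT2 on the log2 scale (SE 0.162, adjusted p = 1.42e-12). HMOX1 had a median of 130.1 CPM in PANC1, 16.6 CPM in COLO357 and 4.25 CPM in SUIT2, with PANC1 against SUIT2 at 4.71 (SE 0.808, adjusted p = 0.000139).

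TFRC was highest in COLO357 (median 1741 CPM), then PANC1 (1039 CPM) and SUIT2 (637 CPM), with all 3 pairs called. IREB2 was also highest in COLO357 (median 223 CPM), ahead of SUIT2 (168 CPM) and PANC1 (131 CPM), again with all pairs called. ISCU ran from a median of 87.5 CPM in PANC1 to 51.2 CPM in COLO357 and 39.8 CPM in SUIT2, with every pair called. SLC40A1 was lower in PANC1 than in the other lines in both tests (0 to 3 counts against 7 to 57). COLO357 and SUIT2 did not differ in it past the threshold (adjusted p = 0.129). FTH1 showed no called difference between lines (adjusted p from 0.207 to 0.576), with medians of 144, 181 and 151 CPM in PANC1, COLO357 and SUIT2. For SLC11A2 only PANC1 against COLO357 was called (0.59, SE 0.216, adjusted p = 0.0204).

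**Figure D4:**
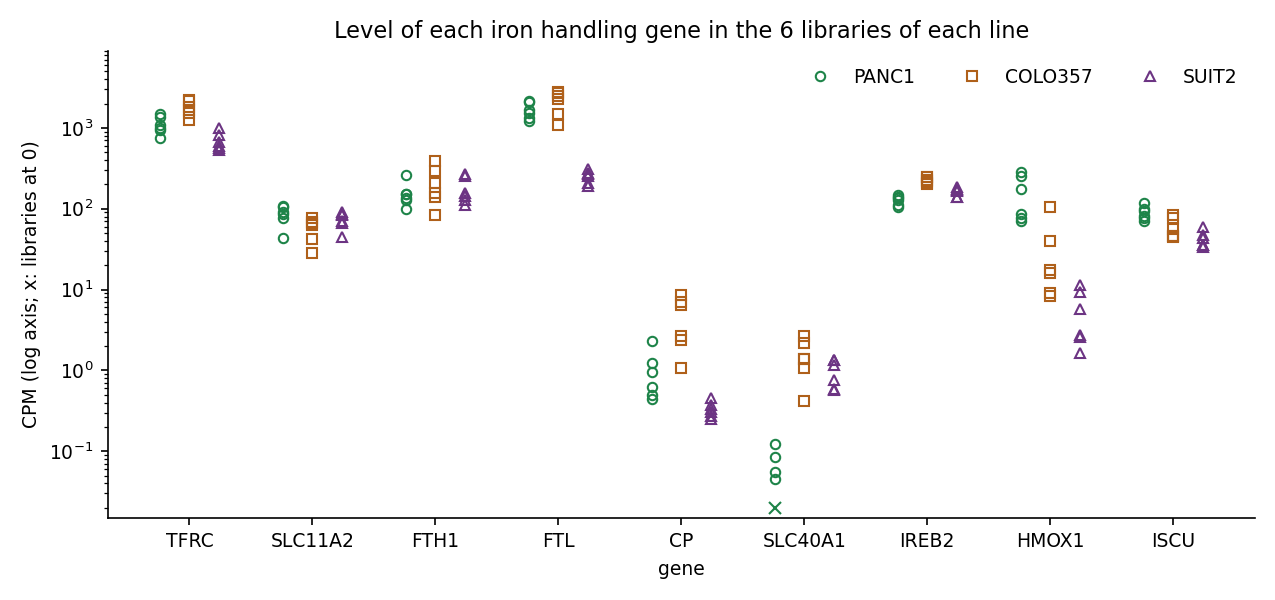
CPM (log axis) of the 9 iron genes with counts in the 6 libraries of PANC1 (green circles), COLO357 (orange squares) and SUIT2 (purple triangles); crosses mark libraries with 0 counts. CPM is not per transcript length, so points compare lines within a gene and not genes with each other. FTL in SUIT2, at 189 to 309 CPM, lies apart from the other lines, while FTH1 overlaps in all 3.

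A wider set of 89 genes of iron uptake, storage, export and sensing, heme, iron-sulfur assembly and copper supply was read in the same fit, of which 80 passed the filter on low counts. Between KMT2C and KMT2D siRNA 3 were higher and 5 lower, that is 8 of 80. An unadjusted p under 0.05 was found for 20, with no share of all genes computed. The median of the 80 was -0.095 (log2) and 33 were positive. Over all 21028 genes tested the median was -0.008, 10360 were positive and 5.17% were called. The block by siRNA left none of the 80 called, with 0.951% of all genes called. Without the 4 libraries that stand apart 1 was called, FURIN, with 1.17% of all genes called.

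The copper pump ATP7B, which loads copper onto ceruloplasmin in the liver, was higher with KMT2C than with KMT2D siRNA (0.75, SE 0.179, adjusted p = 0.0193). It was at 10.1, 14.4 and 14 CPM with the KMT2C siRNAs in PANC1, against 5.49 and 5.49 CPM with the KMT2D siRNAs and 13.0 CPM with control. In COLO357 the values were 7.78, 12.1 and 8.58 CPM, against 6.49 and 8.14 CPM with KMT2D and 10.6 CPM with control. In SUIT2 they were 12.1, 15.3 and 15 CPM, against 11.5 and 5.99 CPM with KMT2D and 19.4 CPM with control. All 6 KMT2D libraries were below control, with no share of all genes computed for this. ATP7B was the only 1 of the 80 called with KMT2D siRNA against control (-0.97, SE 0.227, adjusted p = 0.0349), where 1.2% of all genes were called. That call was lost without any 1 of PANC1 control, PANC1 KMT2D siRNA1, PANC1 KMT2D siRNA2, COLO357 control, SUIT2 control or SUIT2 KMT2D siRNA2 (adjusted p up to 0.313).

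The next smallest p-values with KMT2D siRNA against control were those of the copper importer SLC31A1 (0.78, SE 0.228, adjusted p = 0.0998) and the heme transporter SLC48A1 (-0.54, SE 0.235, adjusted p = 0.336). With KMT2C siRNA against control none of the 80 was called by edgeR, DESeq2 or limma, and edgeR called 0.281% of all genes. An unadjusted edgeR p under 0.05 was found for 9 of the 80, with no share of all genes computed. The 3 smallest p-values were those of the heme exporters ABCG2 (-0.71, SE 0.246, adjusted p = 0.349) and FLVCR1 (-0.42, SE 0.161, adjusted p = 0.415) and of SLC31A1 (0.61, SE 0.216, adjusted p = 0.367).

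Beside ATP7B, the genes higher with KMT2C than with KMT2D siRNA were FURIN, a protease that cleaves the hepcidin precursor among many others (0.68, SE 0.136, adjusted p = 0.00825), and NDOR1, the reductase of the cytosolic iron-sulfur pathway (0.71, SE 0.149, adjusted p = 0.0102). Lower were CIAO2A, an adaptor of the same pathway that serves ACO1 (-0.57, SE 0.133, adjusted p = 0.0178), and BMP2, a ligand that drives hepcidin in the liver (-1.16, SE 0.286, adjusted p = 0.0236). Only 4 to 35 counts fell on BMP2 in any PANC1 library. Also lower were TSPO, an outer mitochondrial membrane protein that binds porphyrins (-0.62, SE 0.165, adjusted p = 0.0327), NFU1, which passes on iron-sulfur clusters in mitochondria (-0.44, SE 0.119, adjusted p = 0.0362), and ABCB10, a mitochondrial transporter needed for heme synthesis (-0.46, SE 0.133, adjusted p = 0.0444). The calls of ATP7B, FURIN, NDOR1 and CIAO2A held in all 18 omissions of a single library. Those of BMP2 held in 17 (lost without SUIT2 KMT2D siRNA2, adjusted p = 0.0561), TSPO in 13 (adjusted p up to 0.0881), NFU1 in 12 (up to 0.0864) and ABCB10 in 4 (up to 0.1003), and ABCB10 was not called with only the groups compared either (adjusted p = 0.0578). By list, 2 of 11 heme synthesis genes, 1 of 19 mitochondrial iron-sulfur genes, 2 of 10 cytosolic iron-sulfur genes, 2 of 7 sensing and hepcidin genes and 1 of 8 copper genes were called, and none of 13 uptake, 8 heme breakdown and transport, 3 storage and 1 export genes.

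**Figure D5:**
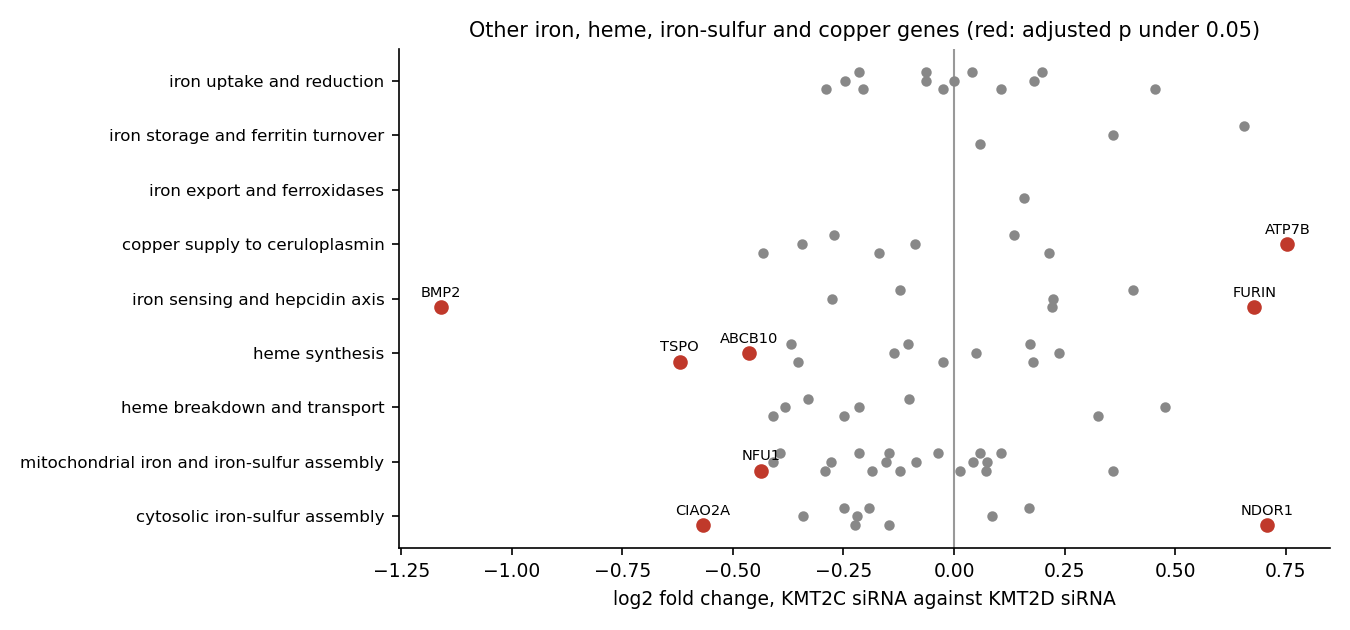
Log2 fold change of KMT2C siRNA against KMT2D siRNA for the 80 other iron, heme, iron-sulfur and copper genes tested, 1 point per gene, by list; red points have an adjusted p under 0.05 and carry their names. BMP2 at -1.16 and ATP7B at 0.75 are the outermost of the 8 red points.

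The genes with the pattern most like CP over the 18 libraries, after each line's mean was removed, were EDARADD (Pearson r = 0.878), PLXDC2 (0.861), NR0B1 (0.856), FAT2 (0.848) and GSTM3 (0.848), among 12962 genes compared. For ISCU they were EDEM3 (0.908), UBTD2 (0.908), TMEM9B (0.898), SLC25A46 (0.887) and FAM219B (0.88). These values describe libraries that share siRNA, line and depth, and carry no test.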

How the data were processed

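RNA was sequenced as 100 nt paired ends from ribosome-depleted stranded libraries, per the labels' protocols, in 18 libraries. Per the submitters' processing notes, the tools named by the authors are FastQC, TopHat2, HTSeq and edgeR, without versions or roles, and the build is hg19. The deposited values are raw counts per Ensembl gene identifier, without normalization; no source used here gives the annotation release or HTSeq's strand and overlap settings, so overlapping and antisense genes may share reads. The 5 entries that name no gene (32.98% to 53.39% of those listed) stayed out of library sizes and tests. Symbols were found for 52181 of 63677 identifiers (81.9%).

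edgeR 4.0.16 (R 4.3.3) was used with TMM factors (0.946 to 1.057), robust quasi-likelihood F tests and Benjamini-Hochberg adjustment over the 21028 genes that passed a minimum count of 10 and total of 15, called under 0.05. All 18 libraries entered 1 fit with an additive cell line term (biological coefficient of variation 0.239, 13 residual degrees of freedom). A fit by siRNA (0.183, 10 degrees of freedom) and 1 with 9 groups of line by target (0.253, 9 degrees of freedom, in which a lone control is assumed to vary like other groups) gave the other contrasts. Each SE was obtained by dividing the size of the log2 difference by √F. CPM are counts scaled to TMM-adjusted library size. The contrast of 0.6 KMT2C and 0.4 KMT2D against control is uncorrelated with KMT2C minus KMT2D in this design. The script was tested on simulated data. No 2 libraries of a group agreed within sampling noise (chi-square per gene 26.9 to 143).

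The members and gene lists were chosen with earlier results of these data known. All members were to be named, with every wider-list gene called in a target contrast (up to 10), the 3 smallest p where fewer than 3 were called, and the 5 genes most like CP and ISCU by Pearson correlation of log2(CPM + 1) among genes with a mean of at least 2 CPM. Alternatives were RLE factors, DESeq2 1.42.0, no filter, only the groups compared, no line term, limma 3.58.1 voom with siRNA as a random block, and leaving out each library, siRNA or line. Leaving out the 4 libraries that stand apart was chosen after seeing the data. The siRNA number of a library names a reagent of its target and does not pair samples across targets.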

Additional observations from a re-analysis of the deposited data

Results flagged for a closer look

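CP in the library PANC1 KMT2D siRNA2 stood apart from the other 5 KMT2D libraries, with a log2 ratio to the PANC1 control of 1.189. It was the 1 library so found in 16 groups examined, 8 genes by 2 targets, and chance gives such a gap in about 1 of 20 groups. The KMT2D values of CP are among those that chose the gene, so this is a description.

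In the following cases every library of 1 line lay on one side of its control and every library of another line on the opposite side, as held for 21.1% of 18400 genes with counts in every control with KMT2C siRNA and for 29.4% with KMT2D siRNA. HMOX1 with KMT2C siRNA had a mean log2 ratio to control of 1.768 in COLO357 and -1.623 in SUIT2. FTL with KMT2D siRNA was at 0.324 in PANC1 and -0.152 in COLO357, and IREB2 with KMT2D siRNA was at 0.126 in SUIT2 and -0.269 in COLO357. SLC40A1 with KMT2D siRNA also has this form, but its PANC1 side is 1 and 2 counts against 0 counts with control. Each line has 1 control library, which all its ratios share. The test of a difference between lines gave an adjusted p of 1 for HMOX1, FTL and IREB2 in edgeR's quasi-likelihood test.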

How the results depend on the processing

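Of the recomputed counts of calls, 243 stayed within 1.5 times and 50 did not. Among the 7 members tested against control with KMT2D siRNA, 1 was called in place of 0 with no filter (FTH1 0.67, adjusted p = 0.038) and without KMT2D siRNA1 (FTH1 1.18, adjusted p = 0.0172), where 1.64% and 5.55% of all genes were called. Between KMT2C and KMT2D siRNA the 1 call (FTL) became 0 with no line term and with siRNA as a replicate block in limma. It also became 0 without KMT2D siRNA1, KMT2D siRNA2, KMT2C siRNA1 or KMT2C siRNA3, without any 1 line, and without the 4 libraries that stand apart. In these settings 0% to 8.94% of all genes were called. Leaving out single libraries gave 0 to 1. With no filter, 1 of 9 was called in the pooled contrast (FTH1 0.65, adjusted p = 0.0362), where 0.678% of all genes were called. That setting also called 10 of 36 between siRNAs of 1 target and 1 of 9 for the difference between lines (HMOX1, adjusted p = 0.00191). The share of all genes was not computed for the siRNA pairs or the line test there, so their counts are not read as particular to the iron genes. Leaving out single libraries gave 3 to 7 calls between siRNAs (3 without SUIT2 KMT2C siRNA3) and 19 to 22 calls between lines. For these counts too the share of all genes was not computed. Leaving out the 4 libraries leaves KMT2C siRNA2 and siRNA3 with 1 library each, so no count between siRNAs is given.

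In the wider list, KMT2D siRNA against control gave 2 calls (ATP7B and SLC31A1) with no filter (1.64% of all genes) and with DESeq2 (3.14%). Without KMT2D siRNA1 it gave 4 (5.55%). It gave 0 with only the groups compared (0.265%), no line term (0%), the replicate block (0.366%) and without KMT2C siRNA3 (0.655%). It also gave 0 without any 1 line (0.149% to 0.452%) or the 4 libraries (1.04%). Single libraries left out gave 0 to 1 (0.17% to 1.53%). KMT2C siRNA against control gave 1 (ABCG2) with no filter (0.675% of all genes) and without KMT2C siRNA2 (0.273%). KMT2C against KMT2D siRNA gave 0 with no line term (0% of all genes), the replicate block (0.951%), and without PANC1 (0.482%) or SUIT2 (0.541%). It gave 13 without KMT2D siRNA2 (8.03%), 2 without KMT2C siRNA3 (1.78%), 3 without COLO357 (1.45%) and 1 without the 4 libraries (1.17%). Single libraries left out gave 5 to 10 (3.22% to 5.86%).

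The sign changed for the following differences, none of them called in any setting that turned it, and for ISCU with KMT2C siRNA against control without KMT2C siRNA2 (-0.0224, not tested). The cause was not tested. KMT2C against KMT2D siRNA, for FTH1: -0.0114 with RLE, -0.0268 with no filter, -0.0117 with DESeq2, -0.0069 with only the groups compared, -0.53 without KMT2D siRNA1, -0.24 without KMT2C siRNA2, -0.18 without COLO357 and -0.0332 without SUIT2. For TFRC it was 0.0024 without KMT2D siRNA2, 0.1044 without KMT2C siRNA1, 0.1031 without KMT2C siRNA3 and 0.1101 without COLO357. For HMOX1 it was 0.69 without KMT2D siRNA2, 0.1756 without KMT2C siRNA1, 0.27 without KMT2C siRNA3, 0.1198 without PANC1 and 0.1585 without SUIT2. For SLC11A2 it was 0.0105 without KMT2C siRNA2. KMT2D siRNA against control turned for FTH1 (-0.1192) and HMOX1 (-0.29) without KMT2D siRNA2, FTL (-0.0486) without PANC1 and IREB2 (0.0397) without COLO357. KMT2C siRNA against control turned for HMOX1 without KMT2C siRNA2 (-0.45) and COLO357 (-0.44), and for IREB2 without SUIT2 (-0.0345). The pooled contrast turned without COLO357 for CP (0.0265) and HMOX1 (-0.1365), and without SUIT2 for IREB2 (-0.0787).

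Leaving out single libraries, values ran from -0.1941 to 0.2128 (FTH1), -0.1375 to 0.0789 (TFRC) and -0.6944 to 0.1077 (HMOX1) for KMT2C against KMT2D siRNA. Against control they ran from -0.0131 to 0.2051 (FTL, KMT2D), -0.1716 to 0.0373 (IREB2, KMT2D), -0.1658 to 1.4709 (HMOX1, KMT2C) and -0.0218 to 0.1882 (IREB2, KMT2C). The pooled contrast gave -0.0776 to 1.5562 (HMOX1) and -0.0817 to 0.1278 (IREB2). KMT2D siRNA2 against siRNA1 gave -0.1883 to 0.0623 (ISCU), -0.1982 to 0.1493 (TFRC) and -0.204 to 0.0291 (SLC11A2).

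The siRNA numbers are shared between targets but name different reagents, so the replicate block took each siRNA as a random effect, with a correlation of 0.211. Low counts limit CP in SUIT2, and SLC40A1, BMP2 (4 to 35 counts) and CP (8 to 54 counts) in PANC1. The single control per line limits every comparison with control.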

Other observations

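CPOX, which makes protoporphyrinogen in heme synthesis, was chosen here after its values were seen. It was at 4.13, 11.3 and 4.05 CPM with KMT2D siRNA2 in PANC1, COLO357 and SUIT2, against 34.5, 34.2 and 42.1 CPM with control siRNA, and at 40.5, 39.5 and 43.6 CPM with KMT2D siRNA1. The single siRNA2 library of each line lay below all others of that line, and the share of all genes with this form was not computed. KMT2D siRNA2 was called against siRNA1 for 11.3% of all genes and against control for 8.92%. With both KMT2D siRNAs together CPOX was at -0.63 (log2, SE 0.581, adjusted p = 0.717 in edgeR's quasi-likelihood test). With KMT2D siRNA1 left out CPOX was at -2.61, given without a test because the siRNA2 values chose the gene. That setting called 4 of the 80 genes, CPOX among them, and 5.55% of all genes. It also called STEAP2, a metalloreductase, at -1.32 (adjusted p = 0.00806), LYRM4, a partner of the cysteine desulfurase of iron-sulfur assembly, at -0.78 (adjusted p = 0.0258), and ATP7B at -1.07 (adjusted p = 0.0169).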
